A study of Mus musculus with 16 samples.

Results

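The 8 libraries described here compare ILC2 of mice lacking Il25 with ILC2 of wild-type mice, 4 libraries of each out of 16 in the series. They were chosen by sample title as Il25 KO replicates 1 to 4 and WT replicates 1 to 4. The study profiled RNA of type 2 innate lymphoid cells (ILC2) from the small intestine of resting mice, to see how IL-25, IL-33 and leukotriene signals set their state at homeostasis. The other 8 libraries, 4 each of St2 KO and Alox5 KO, entered the same model, and St2 KO also served as a further reference, for the reason given below.

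The Il25 KO mice carried Il25 (-/-), the Yarg reporter on both copies of Arg1 (Arg1Yarg/Yarg) and the smart13 reporter on both copies of Il13. St2 KO mice carried St2 (-/-) with the same reporters at Arg1 and Il13, and Alox5 KO mice carried Alox5 (-/-) with the Il13 reporter alone. WT mice were wild-type B6 with the Il13 reporter, so all 16 libraries share that allele and none has an unmodified Il13 locus. The labels name no Cre driver for any knockout, and WT mice lacked the Arg1 reporter, so any effect of Yarg and of the lost Il25 gene cannot be told apart in the comparison with WT. Mice were C57BL/6, between 6 and 10 weeks old, untreated and kept specific pathogen free. Cells came from the first 5 cm of the intestine, were freed with Liberase at 37 °C, enriched over 40% Percoll and sorted, and were labelled as duodenum ILC2. No source used here describes the sort gate. Nor do the labels tie each library to a mouse of its own, so every p-value below reflects only how far libraries of a genotype spread.

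IL-25 is an IL-17-family cytokine that intestinal tuft cells secrete. It binds IL-17RB, which pairs with IL-17RA, recruits the adaptor ACT1 (Traf3ip2) and TRAF proteins, and activates NF-kB and MAP kinases. ILC2 carry much IL-17RB, respond with IL-13 and IL-5, and feed back on the epithelium, where IL-13 expands tuft cells.

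Total gene counts of the Il25 KO and WT libraries ranged from 2447504 to 2783653, and 15490 to 16529 genes were detected per library across the series. The letter codes of the samples form 3 sets whose meaning is not given. Replicates 1 and 2 of every genotype are in set TS. Replicates 3 and 4 are in TY for Il25 KO and for St2 KO, and in TT for Alox5 KO and WT. In Il25 KO replicates 3 and 4, Xist, the RNA of the inactive X chromosome, reached 416 and 467 CPM (counts scaled to library depth), against 0.384 CPM or less in Il25 KO replicates 1 and 2 and in all WT libraries. The Y-linked gene Eif2s3y ran the other way, at 0 CPM in Il25 KO replicates 3 and 4 and 213 to 254 CPM in the rest. St2 KO replicates 3 and 4, also in set TY, shared this pattern. Over 5 tested sex-linked genes their mean log2 CPM was 1.49 and 1.80, against 1.55 and 1.45 in Il25 KO replicates 3 and 4. Every library of TS and TT had 5.65 or more. Il25 KO replicates 3 and 4 therefore differ from all WT libraries in set and in sex-linked transcripts. Beyond set TS these cannot be told apart from each other. Set was a term of the model, and the fit of set TS alone is given beside the main counts.

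The label ILC2 was checked against 7 markers. Gata3, the factor that specifies ILC2, had 587, 576, 698 and 656 CPM in Il25 KO and 629.6, 575, 585 and 573 CPM in WT. Il7r, the IL-7 receptor, ranged from 1105 to 1342 CPM in Il25 KO and from 1051 to 1223 CPM in WT. Rora, Id2 and Il17rb also exceeded 500 CPM in each of the 8 libraries, Klrg1 exceeded 369 CPM and Il1rl1, the IL-33 receptor, 167 CPM. None of the 7 passed between the genotypes in edgeR or DESeq2, and Klrg1 had an unadjusted p below 0.05.

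Other cell types left traces. The 21 B and plasma cell markers summed to 2746 to 3942 CPM in Il25 KO and 2941 to 3574 CPM in WT, mostly Igha, Ighm, Jchain and Igkc, while Pax5 was at 0 in all 8 libraries. The 16 T cell markers summed to 833 to 1092 CPM in Il25 KO and 934 to 964 CPM in WT. The 24 epithelial and tuft markers summed to 481.5 CPM in Il25 KO replicate 1, which had 76.1 CPM of the keratin Krt8, against 34.6 to 51.5 CPM in the other Il25 KO libraries and 37.7 to 101.0 CPM in WT. The 23 macrophage and dendritic markers summed to 1005 CPM in Il25 KO replicate 3, of which H2-Aa gave 239 CPM, against 157 to 408 CPM in the other Il25 KO libraries and 189 to 325 CPM in WT. In that last list Fcgr1 and Mrc1 were at 0 in all 8 libraries, and Csf1r, Adgre1 and Itgam did not exceed 2.12 CPM. In bulk RNA of this kind, fewer cells of a type and less RNA per cell cannot be told apart.

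Counts were compared with the quasi-likelihood test of edgeR over 11742 genes, adjusted by the Benjamini-Hochberg method with a threshold of 0.05. Between Il25 KO and WT 49 genes passed, 0.417% of those tested. Of these, 16 were higher in Il25 KO (0.136% of genes tested) and 33 were lower (0.281%). The 4 libraries of one genotype did not overlap those of the other in 46 of the 49. Over all genes tested the share was 6.4% (3.15% with all Il25 KO libraries above WT and 3.24% with all below). The 49 were chosen by a test on the same counts, so their separation is no separate support. The 3 that overlapped were Fst, Klrb1b and Tph1. The median log2 fold change of all genes was 0.003, with a median standard error of 0.27. DESeq2 called 82 genes, 47 of them among the 49. With set TS alone, where 2 Il25 KO libraries meet 2 WT libraries, the fit over 4 genotypes called 9 genes, and all 9 are among the 49. These were Arg1, AA467197, Tmem87a, Lgals3, Gimap4, Rpl26, Pcna-ps2, Gm43305 and Gm3375. All 49 had the same sign and an unadjusted p below 0.05 there, but set TS also carries most of the weight of the full fit, so it is no separate support. In 23 genes the call held when each of the 16 libraries was left out in turn, and the other 26 lost it at least once; the libraries are named with each gene below. Without WT replicate 2, 31 genes passed, 26 of them among the 49.

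**Figure D1:**
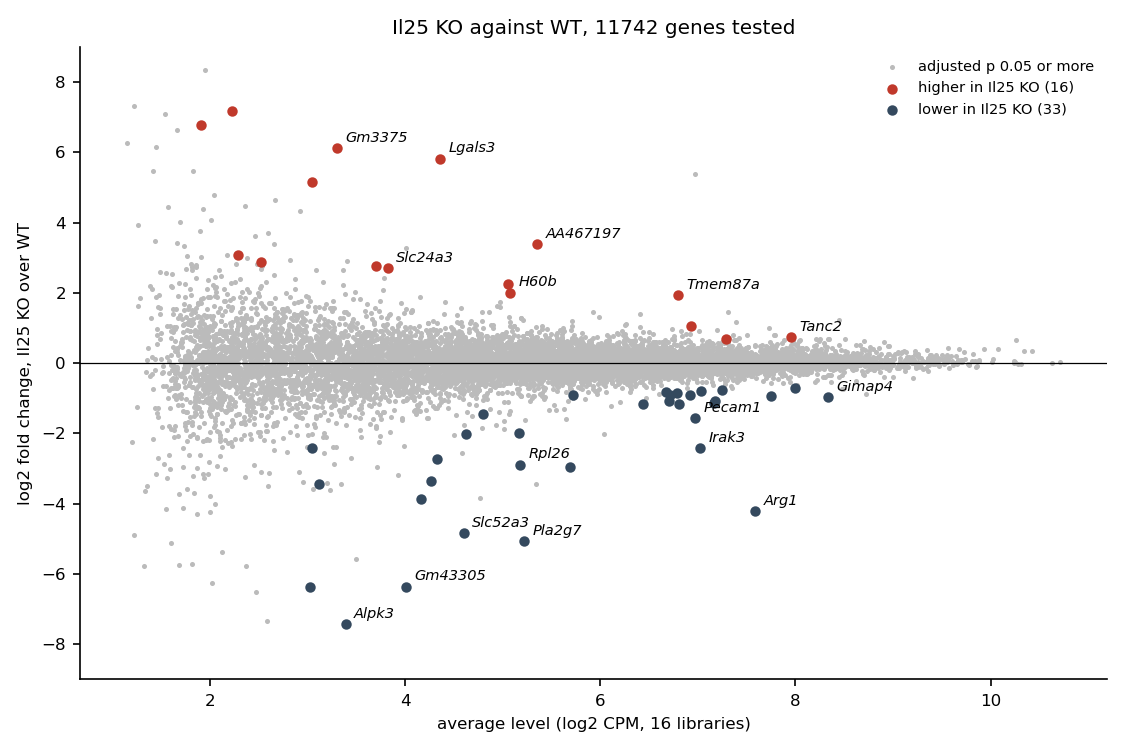
Log2 fold change (Il25 KO over WT) against the average log2 CPM of each of the 11742 genes tested, with the 49 genes that passed marked and the leading ones named. The 16 higher and 33 lower genes lie at an average log2 CPM of 1.91 to 8.34, and 1 gene that did not pass falls outside the plotted range of 9 in either direction.

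The targeted gene could not check the labels. Il25 had 0 counts in all 16 libraries, WT included, and ILC2 are not known as a source of this cytokine. Its receptor chains were measured well. Il17rb, the chain that binds IL-25, had 961.5, 902, 1067 and 1005 CPM in Il25 KO, against 895, 945, 953 and 1027 CPM in WT. The ranges overlap, and the log2 fold change was 0.05 ± 0.07 (SE, adjusted p = 0.918). Il17ra, the shared chain, was far less abundant, at 50.5, 68.4, 56.4 and 85.6 CPM in Il25 KO and 49.8, 56.7, 51.2 and 63.1 CPM in WT (log2 fold change 0.26 ± 0.23, adjusted p = 0.815).

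In the list of 19 receptor and signalling genes, Il17rb and Il17ra included, none passed. Their median log2 fold change was 0.03, against 0.003 over all genes. DESeq2 also called 0 of them. In edgeR 4 had an unadjusted p below 0.05, 3 higher and 1 lower, where 9.3% of all genes did. The adaptor gene Traf3ip2 had a log2 fold change of -0.07 and Traf6, a ubiquitin ligase of the pathway, one of 0.17. In all 4 Il25 KO libraries 3 members lay above WT, against 3.15% of all genes, and 1, Tab2, lay below, against 3.24%. The deubiquitinase gene Tnfaip3, an NF-kB target and brake, had 1471, 1856, 1852 and 1480 CPM in Il25 KO and 1467, 1269, 1163 and 1267 CPM in WT (adjusted p = 0.387). Nfkb1, which encodes the p50 precursor, had 1078 to 1558 CPM in Il25 KO and 1013 to 1037 CPM in WT (adjusted p = 0.446). Usp25, a deubiquitinase that acts on IL-17-family signalling, had 237 to 301 CPM in Il25 KO and 208 to 230.1 CPM in WT (adjusted p = 0.464). Traf5 and Tab2 had log2 fold changes of -0.74 and -0.26 with adjusted p of 0.532 and 0.598.

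Il13, the type 2 cytokine whose locus carries the reporter in every genotype, was sparse. It had 3.61, 8.45, 7.63 and 2.54 CPM in Il25 KO and 6.61, 11.6, 11.96 and 12.2 CPM in WT. Both ranges overlap through WT replicate 1, and the log2 fold change of -1.39 ± 0.62 did not pass (adjusted p = 0.493). Il5, which drives eosinophils, varied by library rather than by genotype, with 18.03, 177, 56.4 and 41.3 CPM in Il25 KO and 47.1, 61.7, 149 and 41.9 CPM in WT. Il4 was tighter, at 236 to 247 CPM in Il25 KO and 282 to 306 CPM in WT, with no overlap and a log2 fold change of -0.24 ± 0.13 (adjusted p = 0.599). Areg, the epidermal growth factor family member amphiregulin, had 63.8, 373, 239 and 139 CPM in Il25 KO and 240.3 to 307.5 CPM in WT (adjusted p = 0.903). Of 15 type 2 effector genes tested, 0 rose and 2 fell, Arg1 and Tph1, against 0.136% and 0.281% of all genes. Arg1 carries the Yarg reporter in Il25 KO. Tph1 overlapped WT and did not pass without the set term (adjusted p = 0.198 in edgeR). The median log2 fold change of the list was -0.24, against 0.003 over all genes. Averaged over the list, Il25 KO replicates 1 and 4 were low, at a mean log2 CPM of 5.37 and 5.35, against 6.19 and 6.18 in Il25 KO replicates 2 and 3 and 6.30 to 6.57 in WT. That average includes Arg1.

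Arg1 (arginase 1, chr10:24915221-24927484 on GRCm38) showed the smallest p of the comparison. It had 24.5, 16.5, 21.6 and 23.2 CPM in Il25 KO, against 389, 310.3, 312 and 330.6 CPM in WT. The libraries are far apart, with a log2 fold change of -4.22 ± 0.20 (adjusted p = 4.61e-10). The other genotype with Yarg at Arg1, St2 KO, had 12.5 to 31.0 CPM, and Alox5 KO, which has no Yarg allele, had 359.7 to 452 CPM. Low Arg1 thus went with the Yarg allele in these libraries, and the part of the lost Il25 gene in it was not tested.

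St2 KO libraries share Yarg and sets TS and TY with Il25 KO, so values of the genes that passed are also given for them. Against St2 KO, 146 genes passed (1.24% of genes tested), 100 higher (0.852%) and 46 lower (0.392%) in Il25 KO. Both comparisons use the same 4 Il25 KO libraries and are not independent. A p above the threshold against St2 KO does not show equal levels. Il1rl1, the gene for ST2, had 197, 157, 209 and 124 CPM in the libraries labelled St2 KO, against 247, 210.5, 167 and 237 CPM in WT. The labels do not say which part of the gene the allele lacks, so these gene-level counts do not check that label. St2 KO in the text means the libraries so labelled.

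Several strongly changed genes had mean St2 KO levels nearer to those of Il25 KO than to those of WT. Tmem87a, a Golgi membrane protein gene at chr2:120355312-120404113, had 187, 189, 172.5 and 176 CPM in Il25 KO, 128 to 174 CPM in St2 KO and 57.2, 42.8, 46.7 and 74.9 CPM in WT. It was higher in every Il25 KO library than in any WT library, with a log2 fold change of 1.94 ± 0.17 (adjusted p = 3.97e-06) against WT and 0.32 ± 0.11 (adjusted p = 0.260) against St2 KO. AA467197, listed in RefSeq also as Nmes1, lies on the same chromosome, at chr2:122636986-122641191, and its span includes the microRNA gene Mir147. It had 95.9, 91.5, 76.7 and 77.95 CPM in Il25 KO, 54.9 to 60.3 CPM in St2 KO and 8.94, 5.01, 12.3 and 6.92 CPM in WT. No WT library came near, and the log2 fold change was 3.39 ± 0.32 (adjusted p = 1.01e-05) against WT and 0.57 (adjusted p = 0.122) against St2 KO. Ndufa4, a protein of respiratory complex IV to which NMES1 is related in sequence, was lower instead. It had 80.8, 68.4, 83.5 and 70.3 CPM in Il25 KO and 136, 134.5, 133 and 139.7 CPM in WT, a log2 fold change of -0.85 (adjusted p = 0.0241). Its log2 fold change against St2 KO was -0.10. The Ndufa4 call was lost without Il25 KO replicate 2, WT replicate 1 or WT replicate 2 (adjusted p = 0.0891 to 0.164).

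On chromosome 10, 2 genes on the side of Arg1 were higher. H60b, a ligand of the activating receptor NKG2D at chr10:22158586-22288849, had 42.6, 67.2, 59.3 and 55.8 CPM in Il25 KO, 28.3 to 51.8 CPM in St2 KO and 14.8, 15.4, 17.2 and 13.8 CPM in WT. All Il25 KO libraries were above all WT libraries, with a log2 fold change of 2.00 ± 0.33 (adjusted p = 0.00443), and of 0.37 (adjusted p = 0.534) against St2 KO. The annotated span of H60b overlaps in part the antisense gene Gm26740 and contains the pseudogene Hmgb1-ps8, both lower in Il25 KO. Gm26740 had 46.2, 58.8, 73.3 and 70.3 CPM in Il25 KO and 134, 113, 125 and 112 CPM in WT (log2 fold change -1.16, adjusted p = 0.00078), and St2 KO had 46.9 to 64.7 CPM (0.17, adjusted p = 0.727). Hmgb1-ps8 had 1 count over the Il25 KO libraries and 129 over the WT libraries, with 0 to 0.337 CPM in St2 KO, and its call was lost without any 1 library except Alox5 KO replicate 4 (adjusted p = 0.0507 to 0.214). The library kit does not mark strand, so reads in any sequence that these 3 overlapping genes share cannot be assigned by strand. How far this affects their counts was not tested. Adat2, the catalytic subunit of a tRNA adenosine deaminase, lies 11.4 Mb from Arg1. It had 50.1, 55.7, 53.0 and 47.9 CPM in Il25 KO, 40.4 to 57.6 CPM in St2 KO and 8.94, 15.03, 15.3 and 7.74 CPM in WT. The log2 fold change was 2.25 ± 0.33 (adjusted p = 0.00148) against WT and 0.04 ± 0.19 (adjusted p = 0.970) against St2 KO. Pex3, which overlaps Adat2 on the other strand, had a log2 fold change of 0.00 ± 0.19.

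**Figure D2:**
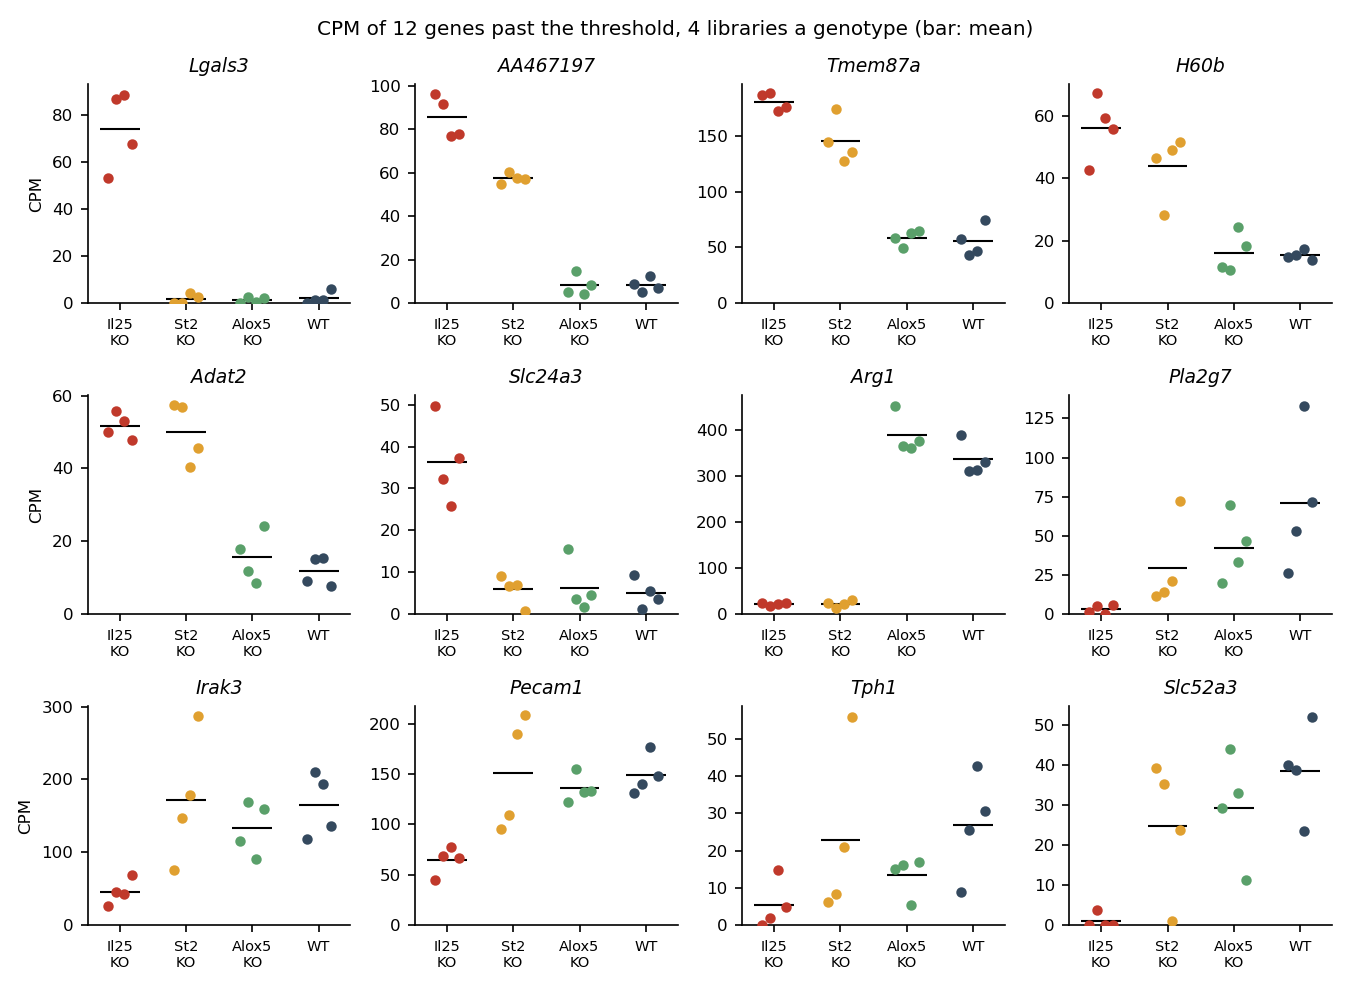
CPM of 12 genes that passed between Il25 KO and WT in each of the 4 libraries of Il25 KO, St2 KO, Alox5 KO and WT, with a bar at the mean of each genotype. Tmem87a, H60b, Adat2 and Arg1 have St2 KO libraries beside those of Il25 KO, and for AA467197 they lie between Il25 KO and WT. Lgals3 and Slc24a3 are high in Il25 KO with the other 3 genotypes low.

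Lgals3 had the largest rise among genes with an established symbol and more than 3 counts in each group. It encodes galectin 3, a lectin that binds beta-galactosides. It had 53.4, 86.8, 88.6 and 67.8 CPM in Il25 KO, a mean of 74.1 ± 16.7 (SD, n = 4). In WT it had 0, 1.16, 1.49 and 6.11 CPM, a mean of 2.19 ± 2.69 (SD, n = 4), and in St2 KO 0, 0, 4.41 and 2.73 CPM. The 4 Il25 KO libraries were far above all WT and St2 KO libraries. The log2 fold change was 5.82 ± 0.72 (adjusted p = 2.21e-05) against WT and 5.41 (adjusted p = 1.09e-08) against St2 KO. DESeq2 gave 5.34 against WT with an adjusted p of 0.0681, so it did not make the call. Lgals3 is also in the list of macrophage and dendritic markers. In that list the macrophage genes Csf1r and Adgre1 did not exceed 2.12 CPM in any of the 8 libraries. Its member H2-Aa, given above, was far higher in Il25 KO replicate 3. The whole list, Lgals3 included, summed to 211, 408, 1005 and 157 CPM in Il25 KO replicates 1 to 4. In WT it summed to 189 to 325 CPM. Both the sum and Lgals3 were higher in Il25 KO replicates 2 and 3 than in replicates 1 and 4. Between replicates 1 and 4 their order was opposite. The part of macrophage or dendritic cells in the Lgals3 result was not tested.

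Lgals3 lies at chr14:47367751-47386160, on the chromosome of Il25 and 7.55 Mb from it. Chromosome 14 held 9 of the 49 genes, 2.24% of the 402 tested there, against 0.417% of all genes. Within 5 Mb of Il25 (chr14:54932695-54935837) 5 of 100 tested genes passed (5.0%), all lower in Il25 KO. The shares were 4.46% within 10 Mb and 3.85% within 20 Mb. Around Arg1, 4 of 32 tested genes passed within 5 Mb (12.5%), Arg1 itself, H60b, Gm26740 and Hmgb1-ps8, and 5 of 132 (3.79%) within 20 Mb. Of these, H60b, Gm26740 and Hmgb1-ps8 overlap one another, so they are not separate sites. Around Il13, where all genotypes carry the reporter, 0 of 95 passed within 5 Mb in edgeR, with 12 at an unadjusted p below 0.05 and 1 called by DESeq2. Within 10 Mb of Il13 1 of 179 passed (0.559%), and within 20 Mb 4 of 292 (1.37%). These 4 were Aldh3a1, Myh10, Haspin and Rpl26. Of them, Myh10 (chr11:68691559-68816632) and Rpl26 (chr11:68901583-68906989) lie close together. The labels give C57BL/6 as the strain of all genotypes and nothing on the sequence that flanks the targeted loci.

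**Figure D3:**
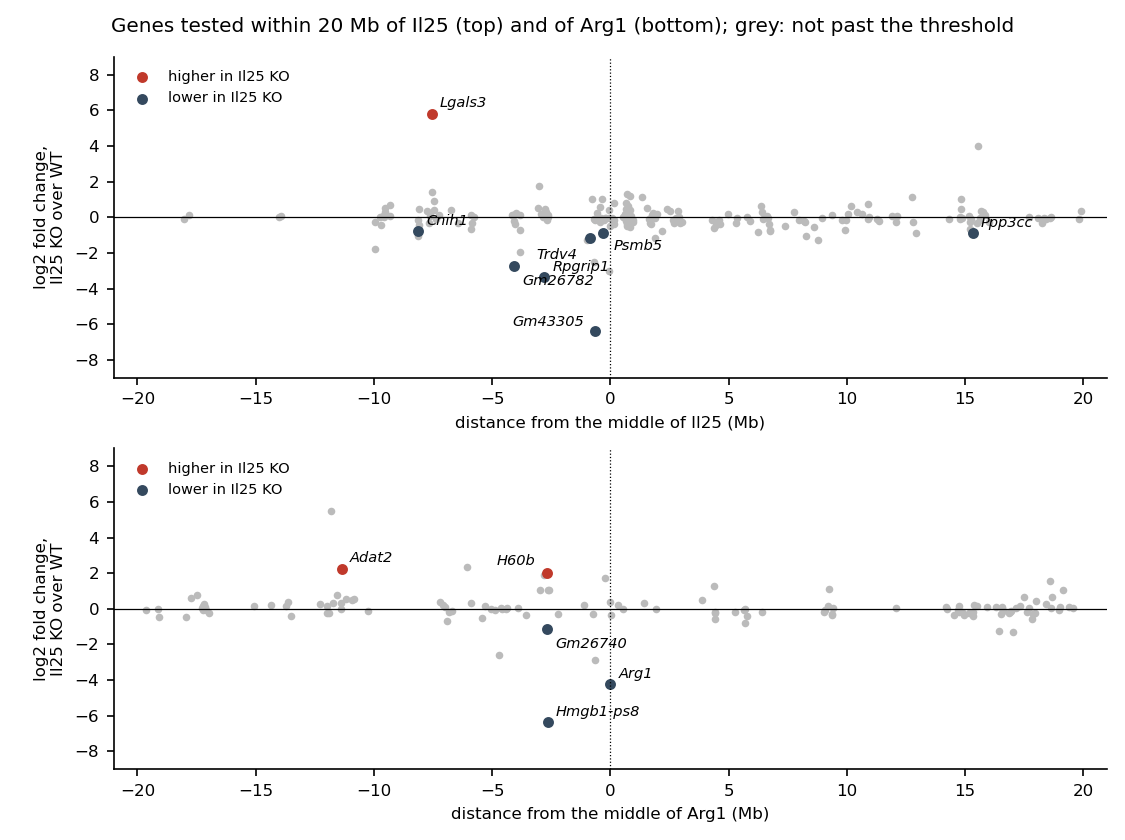
Log2 fold change (Il25 KO over WT) for each tested gene within 20 Mb of Il25 (top) and of Arg1 (bottom), against the distance from the locus in Mb, with genes that passed marked. Near Il25 5 genes that passed lie within 5 Mb, all below 0, with Lgals3 above 0 at 7.55 Mb; near Arg1 the genes that passed lie on both sides of 0.

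Of the genes nearest to Il25, the lncRNA Gm43305 changed most. It lies 0.635 Mb away at chr14:54292443-54297456 and had 0.361, 0.768, 0 and 0 CPM in Il25 KO, against 21.8, 37.8, 26.2 and 24.8 CPM in WT. That is 3 counts over the Il25 KO libraries and 285 over the WT libraries, a 96.8-fold lower level (95% counting interval 32.8 to 472). The files give Gm43305 no role. Psmb5, the chymotrypsin-like catalytic subunit of the proteasome, is the nearest at 0.315 Mb. It had 35.3, 32.3, 38.6 and 26.1 CPM in Il25 KO and 62.6, 56.7, 56.8 and 60.3 CPM in WT, with no overlap and a log2 fold change of -0.90 ± 0.19 (adjusted p = 0.0454). The call for Psmb5 was lost without any 1 of 15 libraries, Il25 KO replicate 3 being the exception (adjusted p = 0.0534 to 0.147). Trdv4, a variable segment of the T cell receptor delta chain at 0.857 Mb, had 57.7, 71.5, 47.0 and 66.4 CPM in Il25 KO and 137, 132, 122 and 131 CPM in WT. Its log2 fold change was -1.15 ± 0.15 (adjusted p = 0.000439), while the 12 tested T cell markers held none that passed in edgeR or DESeq2 and 2 with an unadjusted p below 0.05. Trac, the constant segment of the T cell receptor alpha chain and 1 of those 2, lay below WT in all 4 Il25 KO libraries, at 2.16, 1.54, 3.39 and 0.725 CPM in Il25 KO and 3.50, 11.6, 11.6 and 5.29 CPM in WT (log2 fold change -2.54 ± 0.80, adjusted p = 0.252).

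Rpgrip1, known from photoreceptor cilia, had 5.41, 0.384, 2.12 and 2.18 CPM in Il25 KO and 33.8, 27.8, 25.4 and 16.7 CPM in WT. The groups are well apart, with a log2 fold change of -3.37 ± 0.51 (adjusted p = 0.00149). It overlaps Supt16, a histone chaperone gene on the other strand that had a log2 fold change of 0.46 ± 0.10 (adjusted p = 0.0673). Gm26782, antisense to Tep1, had 8.30, 3.07, 1.70 and 1.81 CPM in Il25 KO and 26.8, 30.5, 26.2 and 23.6 CPM in WT (log2 fold change -2.74 ± 0.42, adjusted p = 0.00204). Tep1 itself had a log2 fold change of -0.22. Cnih1, a cargo receptor of the early secretory pathway at 8.14 Mb, had 93.4, 80.7, 84.8 and 77.2 CPM in Il25 KO and 150.5, 146, 165 and 147 CPM in WT (log2 fold change -0.80 ± 0.13, adjusted p = 0.00635). Farther along the chromosome, Rgcc, a regulator of the cell cycle induced by complement, was higher, at 104, 173, 205.5 and 152 CPM in Il25 KO and 76.2, 67.5, 78.1 and 76.6 CPM in WT (log2 fold change 1.06 ± 0.21, adjusted p = 0.0276). St2 KO had 111 to 128 CPM of Rgcc and Alox5 KO 111 to 184 CPM, so these libraries too were all above WT. Rgcc lost its call without Il25 KO replicate 2, St2 KO replicates 1, 2 or 4, Alox5 KO replicates 1 or 2, or any 1 WT library (adjusted p = 0.0506 to 0.184). Ppp3cc, a catalytic subunit of the phosphatase calcineurin, had 73.6 to 92.0 CPM in Il25 KO and 105 to 147 CPM in WT (log2 fold change -0.90 ± 0.19, adjusted p = 0.0468). Its 2 paralogs Ppp3ca and Ppp3cb had log2 fold changes of 0.08 and -0.05. The Ppp3cc call was lost without the set term (adjusted p = 0.116) and without any 1 library except Alox5 KO replicate 3, St2 KO replicate 3 and WT replicate 1 (adjusted p = 0.0536 to 0.259).

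Promoter windows are shown for 3 genes that mark the comparison: Lgals3, described above, Gm43305, which was nearly lost close to Il25, and Irak3, which was lower than in both WT and St2 KO. They run from 250 bases before to 50 bases after the RefSeq start, 5′ to 3′ on the strand of the gene, on GRCm38.p6. Lgals3 is at chr14:47373610-47373909 (plus strand, a RefSeq start inside the longer annotated span), Gm43305 at chr14:54297439-54297738 (minus strand) and Irak3, described next, at chr10:120202081-120202380 (minus strand). Capitals mark a match on either strand to 1 of 3 motifs. The AP-1 motif was TGANTCA. The GATA motif was AGATAA. The NF-kB motif was GGG, any 2 bases, then TTTCC.
Lgals3: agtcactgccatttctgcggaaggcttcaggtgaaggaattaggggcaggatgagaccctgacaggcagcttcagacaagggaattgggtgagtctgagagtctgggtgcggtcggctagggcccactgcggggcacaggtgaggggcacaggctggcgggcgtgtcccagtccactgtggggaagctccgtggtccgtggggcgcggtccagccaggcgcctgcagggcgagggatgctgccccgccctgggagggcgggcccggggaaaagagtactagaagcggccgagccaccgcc
Gm43305: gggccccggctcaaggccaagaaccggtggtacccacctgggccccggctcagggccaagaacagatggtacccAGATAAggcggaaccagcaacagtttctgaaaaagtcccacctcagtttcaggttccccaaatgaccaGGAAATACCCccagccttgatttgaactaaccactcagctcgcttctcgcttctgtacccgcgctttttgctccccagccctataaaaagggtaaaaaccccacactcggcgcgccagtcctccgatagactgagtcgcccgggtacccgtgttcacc
Irak3: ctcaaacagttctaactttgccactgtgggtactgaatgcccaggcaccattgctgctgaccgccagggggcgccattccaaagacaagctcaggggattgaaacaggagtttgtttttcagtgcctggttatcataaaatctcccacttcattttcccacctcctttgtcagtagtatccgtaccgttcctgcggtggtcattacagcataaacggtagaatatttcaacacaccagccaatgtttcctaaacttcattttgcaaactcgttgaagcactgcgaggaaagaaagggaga
The Gm43305 window holds AGATAA at position 75 and, on the opposite strand, an NF-kB match at position 143, counted from 1 at the first base shown. The 2 matches do not overlap. The Lgals3 and Irak3 windows hold none of the 3 motifs, which says only that these letters are not in the window. Of 32851 RefSeq windows, 7.81% hold the AP-1 letters, 11.2% the GATA letters and 1.63% the NF-kB letters. Of 43 windows of 32 genes that passed, the shares were 6.98% (3 windows), 4.65% (2 windows) and 2.33% (1 window).

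Away from both loci, Irak3, Pla2g7 and Tph1 fell. Irak3 encodes IRAK-M, a brake on signalling from Toll-like and IL-1 family receptors, and lies at chr10:120141648-120202130. It had 26.0, 45.0, 42.4 and 69.3 CPM in Il25 KO, against 119, 209.7, 193.5 and 136 CPM in WT. Every Il25 KO library was below every WT library, with a log2 fold change of -2.43 ± 0.36 (adjusted p = 0.00204). St2 KO libraries ran from 75.1 to 287 CPM, and the log2 fold change against them was -1.89 (adjusted p = 0.0015). The 3 other IRAK genes did not pass: Irak1, Irak2 and Irak4, the kinases that relay the same signals, had log2 fold changes of 0.13, 0.48 and -0.03. Pla2g7, the enzyme that hydrolyses platelet-activating factor, had 1.44, 5.00, 0 and 5.80 CPM in Il25 KO and 26.4, 53.2, 133 and 71.7 CPM in WT. The log2 fold change was -5.07 ± 0.88 (adjusted p = 0.00635), and St2 KO had 11.4, 14.3, 20.9 and 72.2 CPM (-3.20, adjusted p = 0.0593). Pla2g7 is in the macrophage list with Lgals3, and moved the other way. Tph1, the first enzyme of serotonin synthesis, had 0, 1.92, 14.8 and 4.71 CPM in Il25 KO and 8.94, 25.4, 42.6 and 30.5 CPM in WT, with Il25 KO replicate 3 above WT replicate 1. Its log2 fold change of -3.87 ± 0.77 (adjusted p = 0.023) became -2.40 (adjusted p = 0.198) without the set term, and the call was lost without Il25 KO replicates 1, 2 or 4, St2 KO replicates 1 or 4, or WT replicate 2 (adjusted p = 0.0525 to 0.167).

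Pecam1, Cd79b, Pou2f2 and Cd72 also fell. Pecam1 (chr11:106654217-106750628) and Cd79b (chr11:106311341-106314762) lie close together. Near them is Tanc2 (chr11:105589986-105929304), which rose and is described below. The part of this shared position in their changes was not tested. Pecam1, the adhesion receptor CD31, had 44.4, 68.8, 77.1 and 66.4 CPM in Il25 KO and 131, 140.3, 176 and 148 CPM in WT. There was no overlap, with a log2 fold change of -1.56 ± 0.19 (adjusted p = 0.000297) against WT and -1.20 (adjusted p = 0.000182) against St2 KO. The endothelial genes Cdh5 and Kdr were at 0 in all 8 libraries. Cd79b, the beta chain of the B cell receptor complex, had 67.1, 93.8, 120.4 and 103 CPM in Il25 KO and 144, 175, 198 and 182 CPM in WT (log2 fold change -1.07 ± 0.16, adjusted p = 0.0019). Its partner Cd79a had 9.22 to 37.3 CPM in Il25 KO and 15.3 to 39.3 CPM in WT and did not pass. Pou2f2, the B cell factor OCT2, had 11.5, 10.4, 10.6 and 19.2 CPM in Il25 KO and 28.0, 47.8, 61.3 and 52.1 CPM in WT (log2 fold change -1.99 ± 0.38, adjusted p = 0.0183; 0.176 without WT replicate 2). Cd72, an inhibitory receptor of B cells, had 108 to 119.9 CPM in Il25 KO and 145 to 198 CPM in WT (log2 fold change -0.78, adjusted p = 0.0444), and lost its call without any 1 library except Il25 KO replicate 2 and WT replicate 1 (adjusted p = 0.054 to 0.259). Summed B and plasma cell markers, given above, overlapped between the genotypes, and their part in these results was not tested.

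Itpr3, an IP3-gated calcium channel, had 54.8, 58.8, 80.1 and 78.3 CPM in Il25 KO and 92.9, 124, 144 and 136 CPM in WT. The log2 fold change was -1.08 ± 0.16 (adjusted p = 0.00148), while Itpr1 and Itpr2 had 0.07 and 0.17. Pde1c, a phosphodiesterase activated by calcium and calmodulin, had 83.9 to 99.5 CPM in Il25 KO and 159 to 195 CPM in WT (log2 fold change -1.14, adjusted p = 0.0242). The Pde1c call was lost without Il25 KO replicates 1 or 4, St2 KO replicates 1 or 2, or WT replicate 2 (adjusted p = 0.0507 to 0.0593). Gimap4, a GTPase of the immunity-associated family that acts in lymphocyte survival, had 213, 183, 249.6 and 299.5 CPM in Il25 KO and 377, 421, 400.2 and 363 CPM in WT (log2 fold change -0.97 ± 0.13, adjusted p = 0.000833). None of the other 7 Gimap genes tested passed, and the nearest was Gimap7 at -0.61 (adjusted p = 0.135). Klrb1b, an inhibitory C-type lectin receptor, had 83.0, 76.5, 85.2 and 108 CPM in Il25 KO and 114, 145, 103 and 106 CPM in WT. Those ranges overlap, and the log2 fold change of -0.81 ± 0.16 (adjusted p = 0.0223) was -0.41 (adjusted p = 0.378) without the set term. It lost its call without Il25 KO replicate 2 or WT replicate 2 (adjusted p = 0.0723 to 0.216).

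The remaining genes that fell have varied roles. Slc52a3, a riboflavin transporter, had 0, 3.84, 0 and 0 CPM in Il25 KO and 40.1, 38.9, 23.5 and 52.1 CPM in WT. The log2 fold change was -4.85 ± 0.87 (adjusted p = 0.00714), lost without Il25 KO replicate 1 (0.0565), and St2 KO ranged from 1.10 to 39.4 CPM. Alpk3, an alpha kinase known from heart muscle, had 1 count over the Il25 KO libraries and 144 over the WT libraries, a 147-fold lower level (95% counting interval 25.9 to 5835). Ppfibp2, a liprin, had 10.1, 0, 30.1 and 22.1 CPM in Il25 KO and 74.7, 77.1, 95.7 and 88.4 CPM in WT (log2 fold change -2.97 ± 0.39, adjusted p = 0.000533). Aldh3a1, an aldehyde dehydrogenase, had 5.41 to 11.96 CPM in Il25 KO and 21.4 to 40.1 CPM in WT (log2 fold change -2.01 ± 0.39, adjusted p = 0.0223), lost without Il25 KO replicate 1 or WT replicate 2 (0.0913 and 0.168). Tet1, which oxidises methylcytosine, had 14.4, 14.98, 22.9 and 14.9 CPM in Il25 KO and 42.4, 38.9, 30.6 and 41.9 CPM in WT (log2 fold change -1.45 ± 0.31, adjusted p = 0.0444). Tet1 lost its call without replicates 1, 2 or 4 of any genotype (adjusted p = 0.0511 to 0.200). Zfp455, a zinc finger gene, had 1.92 to 3.25 CPM in Il25 KO and 7.47 to 12.7 CPM in WT (log2 fold change -2.42 ± 0.49, adjusted p = 0.0248), lost without Il25 KO replicates 2, 3 or 4, St2 KO replicates 1, 2 or 3, or WT replicates 1, 2 or 4 (adjusted p = 0.0521 to 0.176). Rpl26, a ribosomal protein gene with many near-identical pseudogenes, had 5.05 to 7.63 CPM in Il25 KO and 43.7 to 49.3 CPM in WT (log2 fold change -2.89 ± 0.28), and how reads were shared with its copies is uncertain. Ms4a6b, a membrane protein gene of the MS4A family, had 72.5 to 103 CPM in Il25 KO and 122.5 to 155 CPM in WT (log2 fold change -0.92, adjusted p = 0.0454). It did not pass without the set term (adjusted p = 0.0608), and of the fits without 1 library kept its call only without St2 KO replicate 3 or WT replicate 1 (0.0558 to 0.259 without any other). The lincRNA 1700020I14Rik, at -0.72, and the gene 4930503L19Rik, at -0.94, lost their calls without Il25 KO replicate 1 (adjusted p = 0.0524 and 0.0521).

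Among the genes that rose away from both loci, Slc24a3 was low in both WT and St2 KO. It encodes a sodium, potassium and calcium exchanger and had 49.8, 32.3, 25.9 and 37.3 CPM in Il25 KO, against 0.681 to 9.09 CPM in St2 KO and 9.33, 1.16, 5.604 and 3.67 CPM in WT. The Il25 KO libraries were above all of these, with a log2 fold change of 2.71 ± 0.54 (adjusted p = 0.0248) against WT and 2.64 (adjusted p = 0.00126) against St2 KO. The call against WT was lost without Il25 KO replicate 1, Alox5 KO replicate 4 or WT replicates 1 or 2 (adjusted p = 0.0534 to 0.337). Tanc2, a scaffold protein gene, was abundant, at 310.5, 363, 318 and 335 CPM in Il25 KO and 232, 210.5, 195 and 215 CPM in WT. It had a log2 fold change of 0.73 ± 0.14 (adjusted p = 0.0223) against WT, lost without Il25 KO replicate 2 or WT replicate 2 (adjusted p = 0.106 to 0.141), and 0.71 (adjusted p = 0.0018) against St2 KO. Iqgap2, a scaffold of the actin skeleton, had 191, 169.8, 168 and 166 CPM in Il25 KO and 126, 99.1, 124 and 133 CPM in WT (log2 fold change 0.67 ± 0.13, adjusted p = 0.0248). St2 KO had 137 to 167 CPM and Alox5 KO 157 to 212 CPM, so these libraries too were all above WT. Iqgap2 lost its call without Il25 KO replicates 1 or 2, St2 KO replicate 2, Alox5 KO replicate 2 or WT replicates 2 or 3 (adjusted p = 0.0507 to 0.254).

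Myh10, a non-muscle myosin heavy chain, had 9.38, 14.2, 6.78 and 12.7 CPM in Il25 KO and 1.56, 1.54, 2.24 and 1.63 CPM in WT (log2 fold change 2.88 ± 0.63, adjusted p = 0.0386). Its call was lost without Il25 KO replicate 2, St2 KO replicates 1 to 3, Alox5 KO replicates 1 to 3 or any 1 WT library (adjusted p = 0.0511 to 0.288). Fst, which encodes the activin-binding protein follistatin, had 31.7, 24.6, 20.8 and 13.1 CPM in Il25 KO and 6.61, 1.93, 7.85 and 17.5 CPM in WT, with WT replicate 4 above Il25 KO replicate 4. The log2 fold change of 2.76 ± 0.51 (adjusted p = 0.015) became 1.43 (adjusted p = 0.252) without the set term, and the call was lost without Il25 KO replicate 1 or WT replicate 2 (adjusted p = 0.0521 to 0.164). Multicopy and pseudogene rows gave the largest ratios and are the least certain, since near-identical copies can take each other's reads. Gm15772 had 158 counts over the Il25 KO libraries and 1 over the WT libraries, a 155-fold higher level (95% counting interval 27.4 to 6163), and its call was lost without Il25 KO replicate 2 or WT replicate 2 (adjusted p = 0.0581 to 0.158). Gm3375 had 30.8 to 36.5 CPM in Il25 KO and 0 to 1.49 CPM in WT, and Pcna-ps2 had 10.2 to 20.8 CPM in Il25 KO and 0 to 0.771 CPM in WT. In St2 KO, Gm15772 did not exceed 0.673 CPM and Gm3375 2.02 CPM, while Pcna-ps2 had 8.86 to 12.5 CPM (adjusted p = 0.430). Gm43379 averaged 6.83 CPM in Il25 KO and 1.07 CPM in WT, was not called by DESeq2 (adjusted p = 0.0638) and lost its call without Il25 KO replicates 1 or 2, Alox5 KO replicate 3 or any 1 WT library (adjusted p = 0.0514 to 0.191). It had 2.94 to 4.38 CPM in St2 KO and 1.98 to 7.08 CPM in Alox5 KO, all above the 0.747 to 1.93 CPM of WT. Eif3j2, a gene with a close paralog among the translation initiation factors, had 75 counts in Il25 KO and 0 in WT. With a floor of 3 counts over the WT libraries that is at least 24.5-fold higher. Each St2 KO library had 2.73 CPM or more of Eif3j2 (adjusted p = 0.538). Its call was lost without Il25 KO replicate 2, St2 KO replicate 4, Alox5 KO replicates 1 or 2, or WT replicates 1 or 2 (adjusted p = 0.0502 to 0.255).

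The log2 fold changes against St2 KO of the remaining genes that passed against WT follow. Lower in Il25 KO than in St2 KO were Rpgrip1 (-3.22), Rpl26 (-2.55), Gm26782 (-2.48), Pou2f2 (-1.58), Aldh3a1 (-1.57) and Slc52a3 (-4.67), with adjusted p from 4.68e-06 to 0.0221. Trdv4 (-0.89), Pde1c (-0.79), Itpr3 (-0.76), Psmb5 (-0.74), Cnih1 (-0.73), Cd79b (-0.61) and Gimap4 (-0.57) were lower too, with adjusted p from 0.000436 to 0.0415. Ppfibp2 had 31.98 to 95.4 CPM in St2 KO, above every Il25 KO library (adjusted p = 0.00201). Gm43305 had 8.52 to 17.5 CPM in St2 KO and Alpk3 5.05 to 23.1 CPM, both above every Il25 KO library. Myh10 was higher in Il25 KO than in St2 KO (1.88, adjusted p = 0.0341). The other genes did not pass against St2 KO. These were Fst (1.24), Gm43379 (0.86), Rgcc (0.43) and Iqgap2 (0.18) above 0, and Haspin (-1.79), Zfp455 (-1.61), Tph1 (-2.16), Tet1 (-0.60), 4930503L19Rik (-0.54), Cd72 (-0.42), Ms4a6b (-0.42), Ppp3cc (-0.35), 1700020I14Rik (-0.29) and Klrb1b (-0.08) below it, with adjusted p from 0.062 to 0.885.

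Apart from Arg1, the identity genes of ILC2 did not pass in edgeR. Of a panel of 20, all tested, 1 fell and 0 rose, against 0.281% and 0.136% of all genes. In the panel 11 had a log2 fold change above 0 and 9 below, and the median was 0.004, against 0.003 over all genes. Beside Arg1, 2 had an unadjusted p below 0.05. Klrg1, an inhibitory receptor of mature ILC2, had 409, 449, 447 and 369.8 CPM in Il25 KO and 521, 519.6, 525 and 544 CPM in WT, with no overlap and a log2 fold change of -0.40 ± 0.11 (adjusted p = 0.173). Nmur1, through which the neuropeptide neuromedin U activates ILC2, had 338, 259, 385 and 355 CPM in Il25 KO and 377, 447, 462 and 459.7 CPM in WT (log2 fold change -0.52 ± 0.13). Its adjusted p was 0.122 in edgeR and 0.0197 in DESeq2, which made that call. Il1rl1, the IL-33 receptor, had 257, 440.3, 254 and 209 CPM in Il25 KO and 247, 210.5, 167 and 237 CPM in WT. Il2ra, the IL-2 receptor alpha chain, had 649.5 to 735 CPM in Il25 KO and 517 to 607 CPM in WT, above WT in each library (log2 fold change 0.22 ± 0.13, adjusted p = 0.629). Tcf7 had 83.1 to 127.2 CPM in Il25 KO and 127.8 to 171.9 CPM in WT, below WT in each library (log2 fold change -0.34 ± 0.28, adjusted p = 0.800). Of all genes 3.15% lay above WT and 3.24% below in this way.

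**Figure D4:**
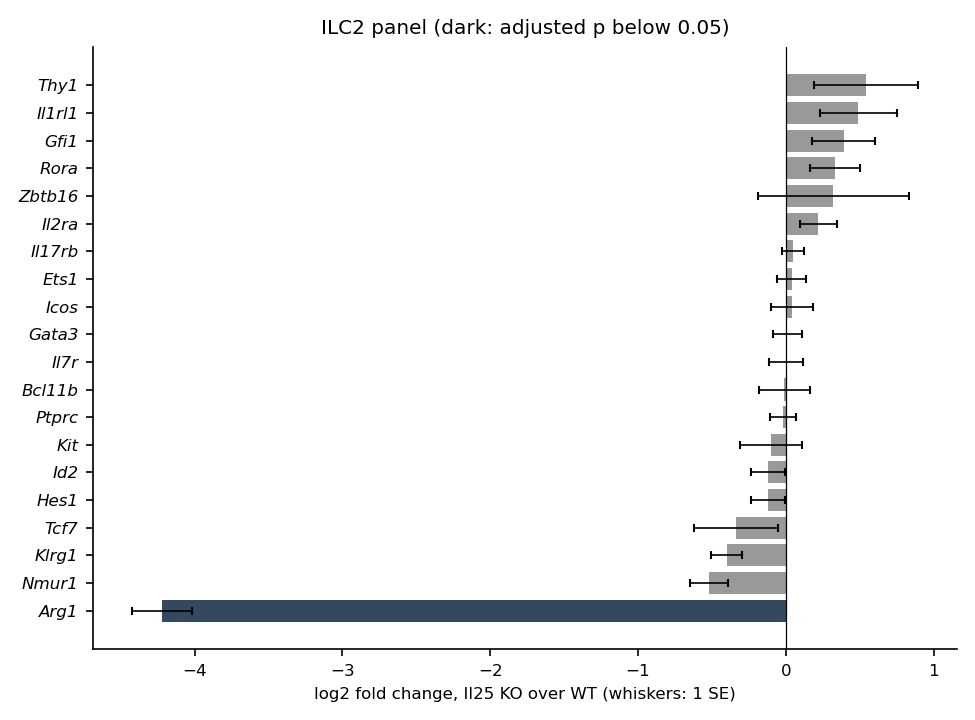
Log2 fold change (Il25 KO over WT) for the 20 genes of the ILC2 panel, each with its standard error. Arg1 is far below 0 at -4.22 and is the member that passed in edgeR; Nmur1 and Klrg1 follow at -0.52 and -0.40.

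Activation genes lay to the other side of 0, with no member passing. Of 25 immediate early and dissociation genes tested, 23 had a log2 fold change above 0, with a median of 0.35. None passed in edgeR or DESeq2, and 6 had an unadjusted p below 0.05, 5 higher and 1 lower, where 9.3% of all genes did. Above WT in all 4 Il25 KO libraries were 6 members, Fos, Fosb, Fosl2, Jun, Jund and Egr1, and below it 0, against 3.15% and 3.24% of all genes. Fosb, an AP-1 subunit, had 340.5, 436, 567 and 400.3 CPM in Il25 KO and 298, 247, 217 and 271 CPM in WT (log2 fold change 0.62 ± 0.17, adjusted p = 0.195). Egr1, a serum-response transcription factor, had 103.5, 131, 202 and 91.0 CPM in Il25 KO and 42.8, 23.9, 54.9 and 41.9 CPM in WT (log2 fold change 1.45 ± 0.43, adjusted p = 0.217). Jun had 354, 288, 358 and 315 CPM in Il25 KO and 251, 192, 193.5 and 272 CPM in WT (adjusted p = 0.256). These genes also respond to warm tissue digestion, whose part was not tested. Of 22 NF-kB targets tested, 17 were above 0 and 5 below, with a median of 0.31. None passed in edgeR or DESeq2, and 6 had an unadjusted p below 0.05, 5 higher and 1 lower, against 9.3% of all genes. In all 4 Il25 KO libraries Nfkbiz, Tnfaip3 and Nfkb1 lay above WT and Ccl3 below, against 3.15% and 3.24% of all genes. Tnfaip3 and Nfkb1 are also in the list of IL-25 receptor and signalling genes, so they count in both. Nfkbiz, an atypical IkB protein gene, had 1037, 1216, 1116 and 978 CPM in Il25 KO and 953, 864, 865 and 881 CPM in WT (log2 fold change 0.30 ± 0.09, adjusted p = 0.248). By library, the mean log2 CPM of NF-kB targets was 7.20 and 7.21 in Il25 KO replicates 2 and 3, but 6.38 and 6.59 in Il25 KO replicates 1 and 4, on both sides of the 6.45 to 6.87 of WT.

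Haspin was the 1 cell cycle gene that passed. Of 37 cell cycle genes tested, 1 fell and 0 rose, against 0.281% and 0.136% of all genes. In this list 24 were below 0 and 13 above, and the median log2 fold change was -0.14. In all 4 Il25 KO libraries 10 of the 37 lay below WT and 0 above, against 3.24% and 3.15% of all genes. The 10 were Kif11, Tyms, Cenpf, Nusap1, Pcna, Ccne2, Plk1, Mki67, Bub1b and Haspin. Tyms, the enzyme that makes thymidylate, had 67.8, 28.1, 33.9 and 37.3 CPM in Il25 KO and 78.9, 69.8, 93.0 and 87.1 CPM in WT (log2 fold change -0.87 ± 0.31, adjusted p = 0.340). The list's mean log2 CPM was 4.66 in Il25 KO replicate 1 and 3.04 to 3.08 in Il25 KO replicates 2 to 4, against 4.38 to 5.46 in WT. Mki67, the marker of cycling cells, had 22, 0.384, 0.424 and 0 CPM in Il25 KO and 24.5, 22.4, 68.0 and 101.0 CPM in WT (adjusted p = 0.801). Haspin, the mitotic histone H3 kinase, had 2.53, 2.31, 1.70 and 3.99 CPM in Il25 KO and 12.1, 13.5, 25.0 and 17.9 CPM in WT, with no overlap, but also 1.35 to 18.1 CPM in St2 KO and 1.18 to 4.35 CPM in Alox5 KO. Its log2 fold change was -3.45 ± 0.64 (adjusted p = 0.00887), lost without WT replicate 2 (adjusted p = 0.0546). Haspin lies inside Itgae on the other strand, and Itgae had a log2 fold change of 1.49 ± 0.79. The library with the higher cell cycle level, Il25 KO replicate 1, is also the one with 481.5 CPM of epithelial markers, and their part in it was not tested.

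**Figure D5:**
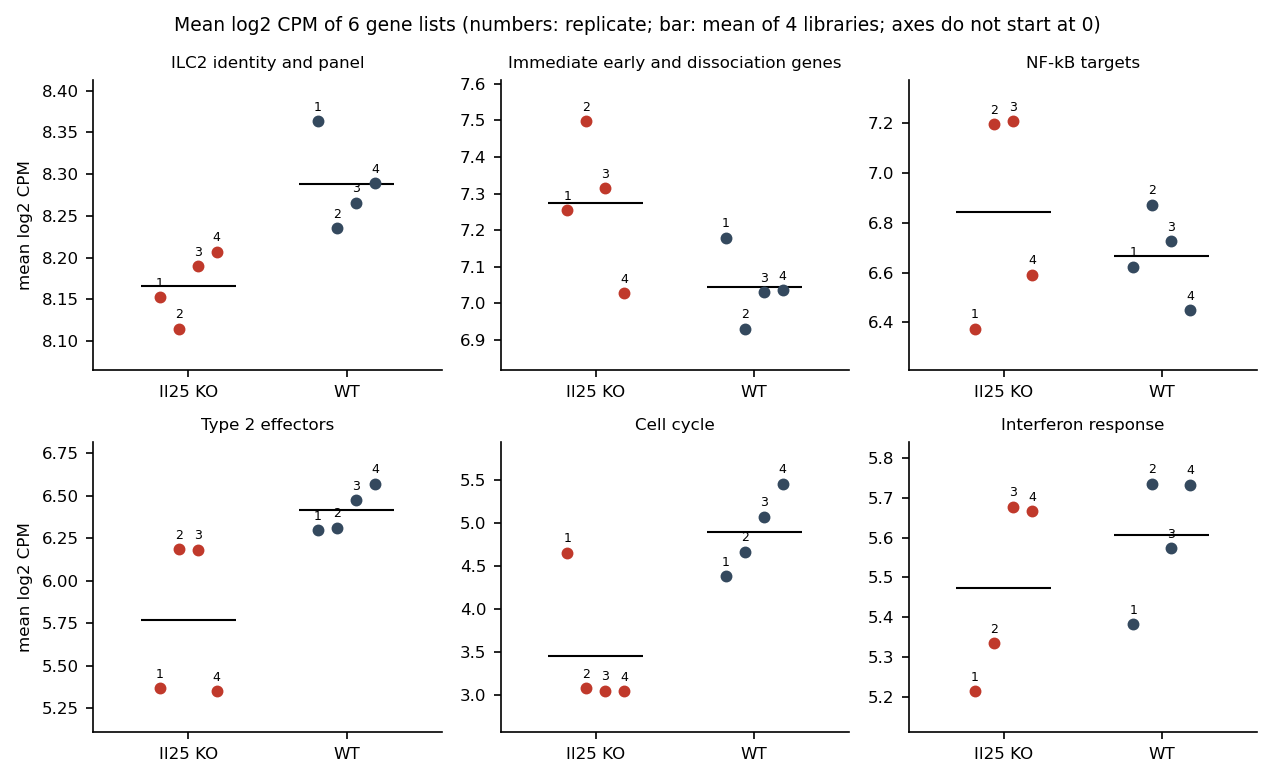
Mean log2 CPM of 6 gene lists in each library of Il25 KO (left) and WT (right), with points labelled by replicate number. Il25 KO replicate 1 stands apart in the cell cycle list at 4.66 against 3.04 to 3.08, and Il25 KO replicates 1 and 4 are the low ones for type 2 effectors and NF-kB targets.

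No lipid gene passed in edgeR. Of 16 lipid uptake and storage genes tested, 10 were above 0 and 6 below, with a median of 0.19. In this list 6 had an unadjusted p below 0.05, all higher, where 9.3% of all genes did. Pparg, the lipid-sensing nuclear receptor, had 246, 295.5, 244 and 228 CPM in Il25 KO and 213, 158, 162 and 173.5 CPM in WT. All Il25 KO libraries were above WT, with a log2 fold change of 0.59 ± 0.15 and an adjusted p of 0.135 in edgeR, and DESeq2 called this 1 member. Dgat1, which makes triglycerides, had 507, 769, 678 and 457 CPM in Il25 KO and 437, 404, 403 and 407 CPM in WT (log2 fold change 0.60 ± 0.18, adjusted p = 0.244). Of 27 interferon response genes tested, 20 were below 0 and 7 above, with a median of -0.24. None passed in edgeR, and DESeq2 called 1, Igtp. An unadjusted p below 0.05 was found in 5, all lower, against 9.3% of all genes. Igtp, an interferon-induced GTPase, had 193, 212.5, 239.9 and 242.5 CPM in Il25 KO and 259, 305, 252 and 259 CPM in WT (log2 fold change -0.43 ± 0.10, adjusted p = 0.0637).

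Residency and survival genes gave 1 call, Pecam1, among 21 homing and adhesion genes tested, where 0.417% of all genes passed. The median log2 fold change of those 21 was 0.02. In that list 2 genes had an unadjusted p below 0.05 with a higher and 5 with a lower level, against 9.3% of all genes. All 4 Il25 KO libraries lay above WT for Itgae and Itgb1 and below it for Pecam1, Itga4 and Cxcr6. Of all genes 3.15% lay above and 3.24% below in this way. Itgae, the CD103 integrin, had 13.3, 8.45, 43.7 and 23.9 CPM in Il25 KO and 3.11, 3.08, 2.99 and 6.11 CPM in WT (adjusted p = 0.600). Itgb1, the beta 1 integrin, had 212 to 241 CPM in Il25 KO and 176 to 197 CPM in WT (adjusted p = 0.362). Itga4, the alpha 4 integrin, had 423, 326, 234 and 242 CPM in Il25 KO and 525, 710.0, 452 and 534 CPM in WT, without overlap, but did not pass (log2 fold change -0.88 ± 0.24, adjusted p = 0.185). Cxcr6, a chemokine receptor of tissue lymphocytes, had 389 to 588 CPM in Il25 KO and 626 to 685 CPM in WT (log2 fold change -0.43 ± 0.13, adjusted p = 0.224). Of 12 BCL2 family genes tested, 8 were below 0, with a median of -0.15. None passed in edgeR or DESeq2, and 4 had an unadjusted p below 0.05, all lower, against 9.3% of all genes. Bcl2l1 and Bmf lay below WT in all 4 Il25 KO libraries, and no member lay above. Bmf, a pro-apoptotic BH3 protein gene, had 4.69, 4.23, 0.848 and 3.26 CPM in Il25 KO and 11.7, 13.9, 17.2 and 13.0 CPM in WT (adjusted p = 0.146). Glycolysis genes were even, with 0 of 18 passing in edgeR or DESeq2, 0 at an unadjusted p below 0.05 and a median of -0.01. Of 18 STAT5 and SOCS feedback genes 0 passed in edgeR or DESeq2, 2 had an unadjusted p below 0.05, 12 were above 0 and the median was 0.11. All 4 Il25 KO libraries lay above WT for Il2ra, Osm and Il2rb and below it for Ptpn6, against 3.15% and 3.24% of all genes.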

How the data were processed

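RNA of sorted duodenal ILC2 was sequenced in 16 libraries, and Il25 KO (n = 4) was compared with WT (n = 4). The authors deposited 1 table of raw read counts per gene, not scaled for depth or length. The submitters' processing notes list mouse build GRCm38 with FastQC 0.11.3, Picard 1.134, HTSeq 0.4.1 and STAR 2.4.2a. Settings, annotation release and duplicate handling were not given in those notes. The Nextera XT kit named in the labels does not mark strand. Of 53471 rows, 6 repeated identifiers were dropped; 25978 genes had a count.

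Counts of all 16 libraries were fitted with edgeR 4.0.16 (limma 3.58.1, R 4.3.3) by the robust quasi-likelihood F test, with TMM scaling, the default expression filter, and genotype and sample-code set as terms, leaving 10 residual degrees of freedom. In the estimate of Il25 KO minus WT, each TS library of these 2 genotypes had a weight of 0.375 in size and each other library 0.125, St2 KO and Alox5 KO included, since they enter through the set term. P-values were adjusted by Benjamini-Hochberg over 11742 genes at 0.05. CPM are depth-scaled counts from the TMM-scaled totals; list means use log2 CPM with a prior count of 2. Ratios of genes with 3 or fewer counts in a group have exact 95% intervals, which cover counting error only. Gene positions come from GENCODE M21, which held 99.8% of identifiers, and promoter sequences from RefSeq. DESeq2 1.42.0, other scalings, filters and sets of libraries were run as alternatives.

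The libraries compared, the gene lists and the alternatives were chosen with earlier results of these data known. The rule for named genes took Il25, Arg1, Il13 and the 2 receptor chains, up to 15 higher and 15 lower genes that passed with an established symbol and an average log2 CPM of at least 2, up to 4 members per list that passed, the ILC2 panel, and the 6 genes nearest to Il25 that passed. The other 18 of the 49, and list members that did not pass, were named after their values were seen.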

Additional observations from a re-analysis of the deposited data

Results flagged for a closer look

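In 10 of 164 groups of 4 libraries looked at, 1 library stood apart from the other 3, its gap to the nearest, as a share of the range, being above Dixon's 95% critical value for 4 values. Chance gives about 1 in 20 such groups. Within Il25 KO, the gap was 1.0 of the range for Slc52a3, where replicate 2 had 3.84 CPM and the others 0. It was 0.981 for the cell cycle genes, as mean log2 CPM, where replicate 1 had 4.66 and the others 3.04 to 3.08. It was 0.934 for Tet1, where replicate 3 had 22.9 CPM and the others 14.4 to 14.98 CPM. Pou2f2 gave 0.868, with 19.2 CPM in replicate 4 and 10.4 to 11.5 CPM in the others, and Iqgap2 gave 0.837, with 191 CPM in replicate 1 and 166 to 169.8 CPM in the others. Within WT, the gap was 0.907 for Kit, where replicate 3 had 238 CPM and the others 155.5 to 163 CPM. Ptprc gave 0.902, with 1271 CPM in replicate 2 and 1229 to 1233 CPM in the others. Il13 gave 0.884, with 6.61 CPM in replicate 1 and 11.6 to 12.2 CPM in the others. Myh10 gave 0.876, with 2.24 CPM in replicate 3 and 1.54 to 1.63 CPM in the others, and Tcf7 gave 0.86, with 172 CPM in replicate 2 and 128 to 134 CPM in the others.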

How the results depend on the processing

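Against WT, 49 genes passed in the reported fit. The count was 82 under DESeq2 (32 higher and 50 lower), 95 without the set term (44 shared, 47 higher and 48 lower), 9 with the 2 genotypes alone, 9 in set TS with 4 genotypes and 4 in set TS with 2, and 26 (25 shared) without Alox5 KO replicates 1 and 2 and St2 KO replicate 1, in which an earlier look found few plasma cell transcripts. It ranged from 31 to 53 when each library was left out in turn. It was 37 in edgeR's legacy mode, 40 without an expression filter, and 49 with DESeq2 size factors or without X and Y genes. Against St2 KO, 146 genes passed, and the count was 246 under DESeq2, 19 and 33 in set TS with 2 and 4 genotypes, 90 without those 3, and 80 to 168 with 1 library left out; the lowest were 85 without Il25 KO replicate 2, 81 without Il25 KO replicate 3, 80 without St2 KO replicate 2 and 84 without St2 KO replicate 4. The fits of set TS and of 2 genotypes rest on fewer libraries; otherwise the cause was not tested. No named gene that passed changed sign. Bcl11b, which did not pass, ranged from -0.31 without Il25 KO replicate 1 to 0.17 without Il25 KO replicate 2; sign changes within 1 SE of 0 were not counted. With the replicate number as a block, 41 genes passed against WT and 139 against St2 KO. Libraries of the same number in Il25 KO and WT had deviations correlated at 0.128, -0.077, 0.113 and 0.131 over 5000 genes, so the numbers were not taken as pairs. The median SE of a log2 fold change was 0.27, and the genes nearest the threshold passed with changes of several SE. Changes that are small against their own SE could thus be missed at this depth and number of libraries. The smallest change that passed in edgeR was 0.67 (Iqgap2), while DESeq2 called Nmur1 at -0.51, so the limit differed by gene and method.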
